A study of Mus musculus with 64 samples.

Results

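The 84 genes described here encode the proteins of the cytosolic ribosome. They were chosen by symbol from the 27179 gene identifiers in the count tables: Rpl or Rps followed by a number and at most a single letter or an l suffix, together with Rplp0, Rplp1, Rplp2 and Rpsa, without pseudogenes, Rps6 kinases and Rps19bp1. Of these genes 52 encode proteins of the large subunit, the stalk proteins Rplp0, Rplp1 and Rplp2 included, and 32 encode proteins of the small subunit. The genes for the separate ribosome of mitochondria are not among them.

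A ribosome is built from ribosomal RNA and about equal numbers of copies of each ribosomal protein, so cells are known to make these proteins in balanced amounts. Their transcripts are among the best known members of the class with a terminal oligopyrimidine tract, a run of C and T at the very start of the mRNA through which the kinase complex mTORC1 controls their translation. In neurons, ribosomes also work in dendrites and near synapses, where CYFIP proteins are known to take part both in the control of translation and, within the WAVE complex, in actin branching. Most ribosomal protein genes have left many processed pseudogenes and a few working paralogues in the mouse genome, so that short reads of one gene can match several places.

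RNA sequencing counts came from punches of the striatum of 32 mice on a C57BL/6NJ background. Of these, 16 had the Cyfip2 genotype N/- and are labelled resistant to binge eating, and 16 had the genotype N/N and are labelled prone to it, with 8 males and 8 females of each genotype. All were 82 to 84 days old and were killed on Day 24 after a 5 min test on an elevated plus maze. N is the Cyfip2 allele that the C57BL/6N substrain carries, a missense form, and the minus sign stands for a null allele, so every mouse here had the N form of the protein. No diet or training group is labelled, and the text of the series speaks of 8 mice per genotype where the sample labels give 16. The lanes divide the libraries into batch B (6 N/- and 10 N/N mice) and batch A (10 N/- and 6 N/N), and no cage held mice of both batches.

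Depth was 28.8 M to 33.8 M counts per mouse (M, mega counts), and markers of striatal projection neurons were abundant in every mouse (15 of 15 genes found, summed 8003 to 15752 CPM in N/- and 11839 to 16949 CPM in N/N mice, where CPM is counts of a gene per mega counts after scaling). Cyfip2 itself was 0.84 lower in N/- mice on the log2 scale (log2 fold change -0.84, SE 0.04, adjusted p = 4.93e-15 in edgeR's quasi-likelihood F test, adjusted by Benjamini and Hochberg). Mouse 3, labelled an N/N female, held 36 counts of the X-inactivation transcript Xist, against 27239 to 48029 in the other 15 females and 30 to 598 in males, while its 31 counts of the Y-linked Ddx3y lay within the 2 to 64 of the other females. Mouse 12, an N/- female, had the largest share of ribosomal protein counts, of mitochondrial counts (10.4%) and of microglial marker counts of all mice. Markers of cortical glutamatergic neurons (10 of 10 genes found, none at 0 in all mice) summed to 405 to 1894 CPM in N/- and 452 to 1079 CPM in N/N mice. Mice 4, 5, 8 and 9, all N/- mice of batch A, had the 4 highest cortical sums (1288 to 1894 CPM) and striatal sums of 8003 to 10407 CPM, under the 11379 CPM of the next lowest mouse. Results for the whole family that turn on any of these mice are given with and without them, and those for single genes only in part. Because tissue was measured in bulk, fewer cells of a type and less RNA per cell cannot be told apart.

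RefSeq promoter sequences of GRCm38.p6, the assembly also called mm10 that the submitters' processing notes name, were matched for 64 of the 84 genes. Below are windows of 30 bases, 15 before and 15 from the annotated start, for some of the genes with the smallest p by genotype, by sex, by batch or for the difference in genotype effect between the sexes, for Rpl14, among the closest to the family's median, and for Rpl7a, which held the longest run. Capitals mark the longest unbroken run of C and T in each window.
Rps15a (chr7:118116133-118116162, minus strand): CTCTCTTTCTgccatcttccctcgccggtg
Rps6 (chr4:86857353-86857382, minus strand): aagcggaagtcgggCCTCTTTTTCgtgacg
Rps18 (chr17:33955651-33955680, minus strand): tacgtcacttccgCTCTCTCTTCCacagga
Rpl14 (chr9:120571502-120571531, plus strand): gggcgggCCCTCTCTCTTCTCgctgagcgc
Rpl28 (chr7:4792950-4792979, plus strand): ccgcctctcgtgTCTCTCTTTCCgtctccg
Rpl7a (chr2:26910792-26910821, plus strand): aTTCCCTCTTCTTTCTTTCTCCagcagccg
Rps28 (chr17:33824548-33824577, minus strand): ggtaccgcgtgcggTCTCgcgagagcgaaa
Rpl5 (chr5:107900513-107900542, plus strand): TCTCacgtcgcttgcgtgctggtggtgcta
Rps4x (chrX:102189377-102189406, minus strand): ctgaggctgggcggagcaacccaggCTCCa
Rps16 (chr7:28350674-28350703, plus strand): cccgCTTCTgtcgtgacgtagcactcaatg
Rpl24 (chr16:55966260-55966289, plus strand): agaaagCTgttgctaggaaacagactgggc
The first 6 hold runs of 10 to 21 bases. The run of Rps15a lies wholly before the annotated start, and those of Rps6, Rps18, Rpl14, Rpl28 and Rpl7a span it. Annotated starts were not checked against the reads. A run is therefore not shown to be a tract of the mRNA, nor a short run to be the lack of one. The runs of Rps28, Rpl5 and Rps4x are 4 bases long, and in Rps16 and Rpl24, the genes with the largest differences between batches, the runs are 5 and 2 bases long. Within 30 bases on either side of the start, 36 of 64 ribosomal protein genes (56.3%) had a C and T run of at least 8 bases, against 25.8% of 27025 genes. Runs of at least 10 bases stood at 27 of 64 (42.2%) against 12.6%.

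In the 300 bases around the start, CCGGAAG, read on both strands, was found in 26 of 64 ribosomal protein genes (40.6%) and in 9.93% of all genes. These are letters of the kind that ETS factors such as GABPA bind. The pyrimidine word CTCTTTC, read on the strand of the gene and overlapping the runs above, stood in 20.3% against 4.60%, and CTTTCC on the same strand in 39.1% against 16.0%. AAGATGGC on both strands, letters known from YY1 sites, stood in 9.38% against 3.19%, and TATAAA on the gene's strand in 10.9% against 9.77%. A match in these windows is a match of letters and was not tied to any measurement of binding.

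The family as a whole took a small share of the counts. The 84 genes held 0.269% ± 0.0286 of all counts (SD, n = 32), of which 0.159% lay on large subunit and 0.1097% on small subunit genes. This cannot be read as their share of the mRNA. The sources do not say how multiply matching reads were treated, and Rpl13 and Rpl39 had 0 to 8 and 0 to 2 counts per mouse. The share was 0.268% ± 0.0333 in N/- mice and 0.270% ± 0.0240 in N/N mice (SD, n = 16 each), less apart than the spread within either genotype. It ran from 0.231% over a median of 0.259% to 0.356% in N/- mice, and from 0.233% over 0.263% to 0.315% in N/N mice, so the groups overlapped almost wholly. Of the N/- mice, mouse 12 at 0.356% and mouse 5, a male, at 0.331% stood above all N/N mice. By sex the share was 0.271% ± 0.0267 in males and 0.267% ± 0.0310 in females, and by batch 0.262% ± 0.0236 in batch B and 0.276% ± 0.0321 in batch A (SD, n = 16 each).

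**Figure D1:**
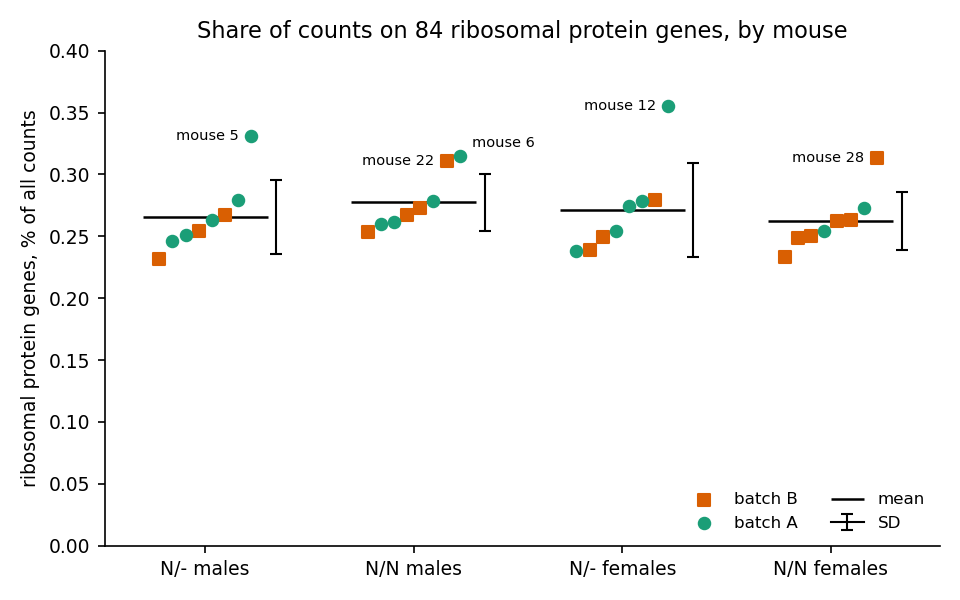
Share of all counts on the 84 ribosomal protein genes (vertical axis, percent) in each of 32 mice, by genotype and sex, with the group mean (line), SD (bar) and batch (square B, circle A). Mouse 12 at 0.356%, mouse 5 at 0.331%, mouse 6 at 0.315%, mouse 28 at 0.313% and mouse 22 at 0.311% stand above the other 27 mice, which lie at 0.280% or less.

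The proteins are needed in like numbers, yet the counts on their genes were far from equal. Per kb of the shortest principal transcript, the level ran over a range of 1095-fold among tested genes. Over the 83 genes with a transcript length the quartiles were 3.07 and 44.0 CPM per kb and the median was 17.2. The 5 genes with most counts, Rps3, Rpl8, Rpl4, Rplp1 and Rps15, held 41.5% of the family's counts and the first 10 held 56.8%. Of all members, 23 averaged at least 1000 counts per mouse and 18 averaged under 50.

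At the top stood Rplp1, an acidic protein of the stalk that recruits elongation factors, at 396 CPM per kb. In CPM it ran from 154 over a median of 187 to 293 in N/- mice, and from 172 over 198 to 247 in N/N mice. The next were Rps15, a protein of the small subunit's head, at 310 CPM per kb, and Rpl8, near the peptidyl transferase centre, at 301. Rpl22 (169), Rps14 (157), Rpl4 (156), Rps3 (140) and Rps21 (138 CPM per kb) completed the 8 highest, so both subunits were represented. The longest principal transcript was also tried for the 8 highest, the 8 lowest and Rps15a. With it 5 of these levels moved by more than their SD between mice, so the order per length is uncertain. Rps3, which lines the mRNA entry channel, had the most counts, from 225 over 257 to 386 CPM in N/- mice and from 238 over 259 to 322 CPM in N/N mice.

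At the bottom were genes for proteins that every ribosome holds as well as tissue-restricted paralogues. Rpl13, a protein of the large subunit, had 0 to 8 counts per mouse (0.0859 CPM per kb), and Rpl39, which lines the exit tunnel, had 0 to 2 counts (0.0311 CPM per kb). Rps23, which takes part in decoding, stood at 0.361 CPM per kb, Rps13 at 1.14 and Rpl28 at 1.15. Rpl10l and Rpl39l are known from the testis and Rpl3l from heart and skeletal muscle. Rpl10l had no count in any mouse, Rpl39l had 0 to 4 counts and Rpl3l stood at 0.561 CPM per kb. Taken singly, a library without a count leaves room for up to 3 counts, and all 32 together leave room for fewer per library. Rpl13, Rpl39, Rpl39l and Rpl10l did not pass the filter on low counts and were not tested.

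The levels ran in part with how much of each transcript is shared with other genes. For each gene the share of its 50-base words, the length of the reads, that occur in no transcript of another gene was computed, and its median was 42.6% over 83 genes. Median level was 3.07 CPM per kb for the 6 genes with under 10% of such words, 13.5 for the 46 genes with 10% to 50%, and 40.9 for the 24 genes with 50% to 90%. The 7 genes with 90% and over had a median of 8.24, with Rpl10l, Rpl3l and Rpl39l among them. Across these 83 genes, which are not independent replicates, Pearson's r was 0.29 and Spearman's rho 0.36, given as a description. Rpl13 had 19.7% and Rpl5 6.16% of such words, but Rpl39 had 83.5% and Rpl28 49.5%. Only exact matches to annotated transcripts were counted. A near copy with a changed base, or a copy outside the annotation, therefore left a word as unshared, and sharing can be larger than these values. The sources used here do not say which matches the counting kept, so levels of genes with few words of their own are uncertain, and the part of sharing in the levels was not tested. The 29 ribosomal protein pseudogenes with a count held 46997 counts, against 2.71 M on the 84 genes.

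**Figure D2:**
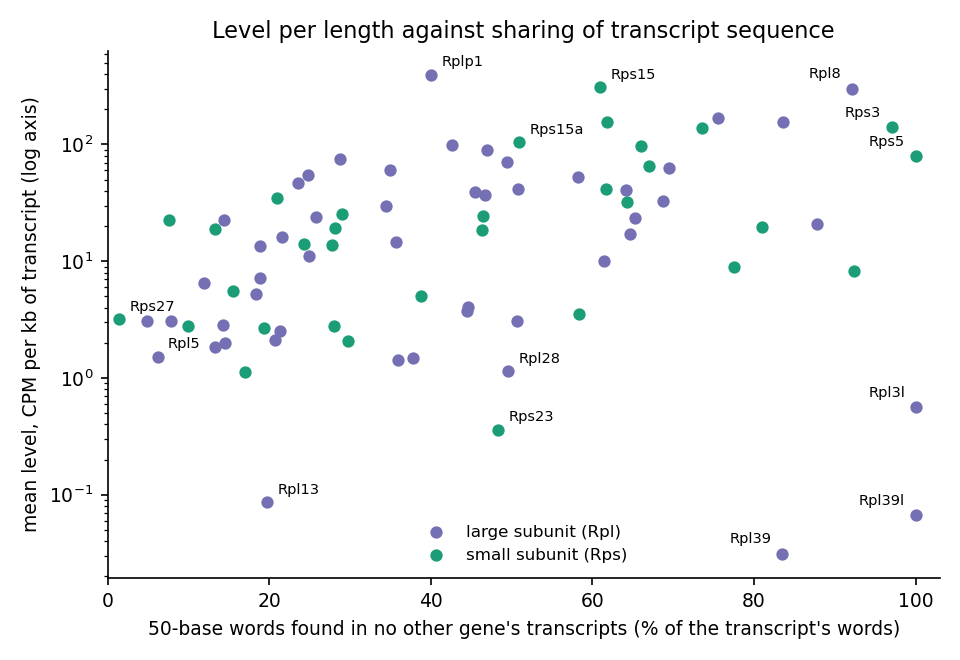
Mean level of each ribosomal protein gene (vertical log axis, CPM per kb of transcript) against the percent of its 50-base words found in no other gene's transcripts (horizontal axis), with large and small subunit genes in 2 colours. Rplp1 at 396, Rps15 at 310 and Rpl8 at 301 CPM per kb lie on top, Rpl13 at 0.0859 and Rpl39 at 0.0311 far below, and Rpl10l, at 0, is not drawn.

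Among pairs of paralogues, the ubiquitous gene was not always the higher. Rpl22 stood at 79.96 ± 7.88 CPM in N/- and 80.2 ± 4.35 CPM in N/N mice and at 169 CPM per kb, and its paralogue Rpl22l1, a protein that can take its place in the ribosome, at 16.7 ± 2.69 CPM in N/- and 16.1 ± 1.94 CPM in N/N mice (SD, n = 16 each) and at 29.7 CPM per kb. Rpl7 had 36.7 and Rpl7l1 20.7 CPM per kb, and Rpl3 had 22.3 against 0.561 for Rpl3l. For Rps27 the order was turned, with 3.17 CPM per kb for Rps27 and 8.97 for Rps27l, a p53-responsive paralogue. Rps27 had 1.35% of 50-base words of its own and Rps27l 77.6%, so the lower value is uncertain. Of the X-linked genes, Rps4x had 13.6, Rpl10 3.07, Rpl36a 1.98 and Rpl39 0.0311 CPM per kb. Rpl36al, an autosomal paralogue of Rpl36a outside the 84 genes, stood at 5.30 ± 0.863 CPM in N/- mice and 5.26 ± 0.617 CPM in N/N mice, where Rpl36a itself stood at 0.954 ± 0.242 CPM in N/- mice and 0.955 ± 0.172 CPM in N/N mice (SD, n = 16 each).

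Across mice the genes moved as a block. Among the 57 members with a mean of at least 100 counts, all 1596 pairs were positively correlated in log2 CPM over the 32 mice, with a median r of 0.75. Removing batch, sex and genotype left the median at 0.75, and leaving out mice 5 and 12 brought it to 0.63, with 98.0% of pairs positive. Over all 80 tested members the median was 0.56. The points share libraries and their scaling, so these correlations are descriptions.

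Rps3 followed the median of the other members most closely (r = 0.90), followed by Rpl35a (0.90), Rpl37 (0.89), Rplp0, the anchor of the stalk (0.89), and Rpl14 (0.89). Without mice 5 and 12 the values were 0.82 for Rps3, 0.82 for Rpl35a, 0.81 for Rpl37, 0.79 for Rplp0 and 0.83 for Rpl14. Of 80 members 64 had an r over 0.5 and 33 over 0.8. The lowest were Rpl9 (-0.29), Rpl3l (-0.27), Rpl17 (-0.15), Rpl23a (-0.06) and Rpl28 (0.02), all with a mean under 62 counts, where counting error is large. Rps15a was the exception among abundant genes. With a mean of 2100 counts it reached an r of 0.39, and 0.13 without mice 5 and 12, and its coefficient of variation within groups, 6.91%, was the lowest of the tested members. The most variable members were Rps23 (36.1%), Rpl32l (28.5%), Rpl3l (26.5%), Rps13 (25.7%) and Rpl28 (24.6%), each with a mean of 28 counts or fewer.

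In 5 mice nearly the whole family stood high. Of 80 tested members, 75 were above their own mean in mouse 12, 75 in mouse 6, 72 in mouse 5, 72 in mouse 22 and 69 in mouse 28, against 7 to 61 in the other mice. These mice were an N/- female, an N/N male and an N/- male of batch A, and an N/N male and an N/N female of batch B, so no genotype, sex or batch held all of them. Their mitochondrial shares were 10.4%, 6.96%, 5.83%, 7.52% and 7.46% of counts in the order named, the highest and the lowest of all 32 mice among them. Microglial markers (9 of 9 genes found, none at 0 in all mice) summed to 554 to 778 CPM in N/- mice and 550 to 713 CPM in N/N mice, with mouse 12 the highest and mouse 28 the lowest of all mice. Astrocyte markers (8 of 8 found, none at 0 in all mice) summed to 1327 to 1683 CPM in N/- and 1286 to 1751 CPM in N/N mice, with mouse 28 the highest and mouse 6 the lowest. Blood markers (4 of 5 found, none of these at 0 in all mice) summed to 8.38 to 17.7 CPM in N/- and 11.5 to 26.3 CPM in N/N mice, with mouse 28 the highest. Cortical sums were 514 CPM in mouse 12, 769 in mouse 6, 1349 in mouse 5, 859 in mouse 22 and 1079 in mouse 28. Oligodendrocyte markers (8 of 8 found, none at 0 in all mice) summed to 6414 to 12492 CPM in N/- mice (median 8295). In N/N mice they summed to 6724 to 11510 CPM (median 8476). Mice 12, 5, 22 and 28 stood at 10152, 9928, 9879 and 11510 CPM, above both medians, and mouse 6 at 7005 CPM, below both. The part of these markers and of the mitochondrial share in the family's levels was not tested.

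**Figure D3:**
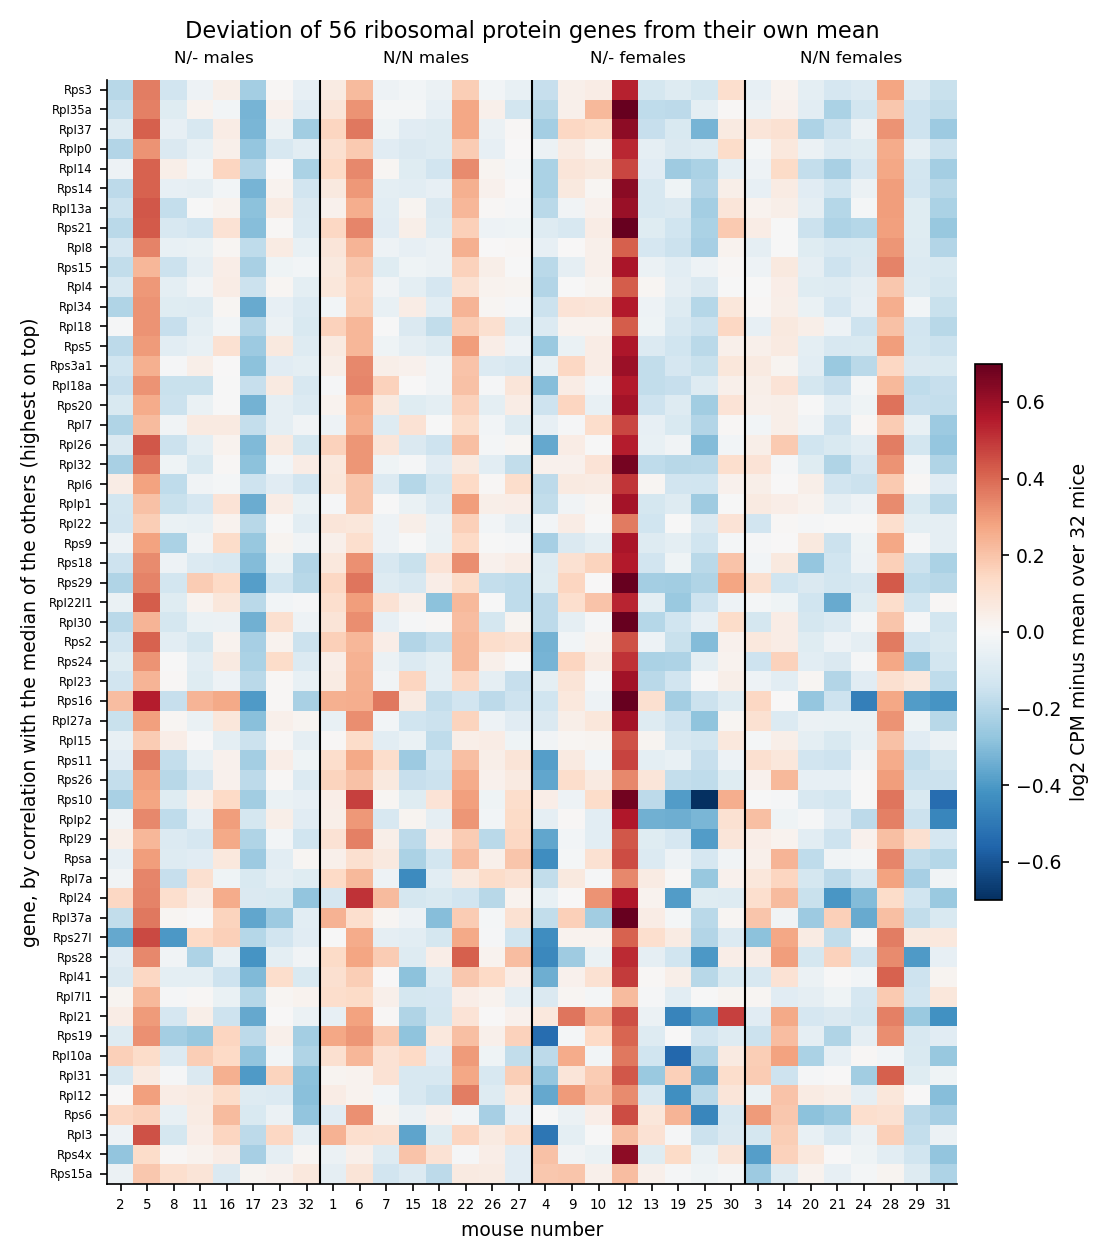
Deviation of 56 of the 57 ribosomal protein genes with a mean of at least 100 counts (rows; 1 is not shown) from their own mean in each mouse (columns, by genotype and sex), as log2 CPM, red for higher. The columns of mice 12, 5, 6, 22 and 28 are red over most rows, and Rps15a, the lowest row, differs little between mice.

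The comparison of genotypes asked whether loss of a Cyfip2 copy went with a change in these transcripts. No ribosomal protein gene passed the threshold of an adjusted p under 0.05 (edgeR, smallest adjusted p = 0.739), against a background of 0.0119% of 16776 genes. At an unadjusted p under 0.05 stood 3 of 80 members, against 6.46% of all genes. Among the 21 mice of 10 cages that held both genotypes, with cage as a block, 12 of 80 did so, all lower in N/- mice, against 4.99% of all genes, with a median of -0.08 and 0 past the adjusted threshold. DESeq2 and limma voom called 0 members too. Small shifts were shared by many members: 69 of 80 had a negative log2 fold change (N/- over N/N), against 50.0% of all genes tested, and the median was -0.03, against 0.00 for all genes. For the large subunit 42 of 48 and for the small subunit 27 of 32 were negative. Since members rise and fall together across mice, these 80 values are not separate pieces of evidence. The SE was 0.04 to 0.18 with a median of 0.07, and for 61 members the 95% interval lay within 0.25 log2 units of no difference.

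Rps15a, a protein of the small subunit's body (Entrez 267019, chromosome 7, 118104374 to 118116147, mm10), had the smallest p. Its level ran from 62.0 over a median of 68.2 to 77.3 CPM in N/- mice, and from 55.8 over 63.4 to 70.8 CPM in N/N mice. The highest N/N mice thus lay inside the range of the N/- mice. The log2 fold change of 0.12 (SE 0.04) had an unadjusted p of 0.00271 and, adjusted over all genes, 0.739 (edgeR). It was 0.05 (SE 0.04) in batch B and 0.18 (SE 0.06) in batch A, over 1.5 times apart, and 0.06 (SE 0.03) among mice of 10 cages with both genotypes. The highest levels of all mice were those of mouse 12 (77.3 CPM) and of mice 9, 4, 5 and 8 (76.1, 75.9, 75.9 and 72.2 CPM). Mice 4, 5, 8 and 9 are the N/- mice of batch A with the highest cortical sums. The fold change of Rps15a without them is not given here, so it cannot be told apart from their tissue content.

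Rps28, at the mRNA exit side of the small subunit (Entrez 54127, chromosome 17, 33823036 to 33824562), ran from 2.75 over 3.59 to 5.40 CPM in N/- mice and from 2.85 over 4.01 to 5.02 CPM in N/N mice. The ranges overlapped fully, and the highest N/- value was that of mouse 12. The log2 fold change was -0.19 (SE 0.08, unadjusted p = 0.0351, adjusted p = 0.767 by edgeR), and -0.23 (SE 0.08) without mouse 12. Rpl5, which with Rpl11 carries 5S RNA and restrains MDM2 in ribosomal stress, ran from 2.62 over 3.43 to 4.04 CPM in N/- mice and from 2.25 over 2.77 to 3.66 CPM in N/N mice. The log2 fold change was 0.13 (SE 0.07, unadjusted p = 0.0494, adjusted p = 0.772 by edgeR). It was 0.28 (SE 0.10) on the first runs and -0.05 (SE 0.09) on the second runs of the same libraries.

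Of the other members named by their small p, Rpl10a stood at -0.11 (SE 0.06), Rps26 at -0.10 (SE 0.06), Rps19, a gene mutated in Diamond-Blackfan anaemia, at -0.12 (SE 0.07) and Rps23 at -0.28 (SE 0.18). On the positive side were Rps4x at 0.05 (SE 0.07), Rps16 at 0.04 (SE 0.09) and Rpl21 at 0.02 (SE 0.09). None of these passed the threshold.

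**Figure D4:**
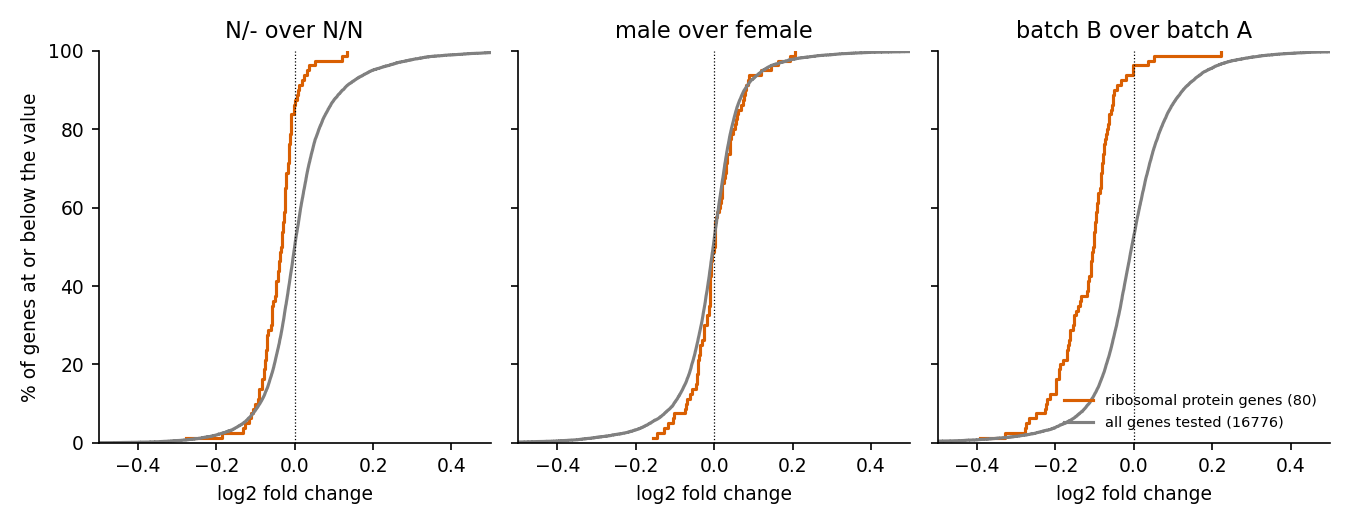
Percent of genes (vertical axis) at or below a log2 fold change (horizontal axis) for 80 ribosomal protein genes and all 16776 genes tested, by genotype, sex and batch. The members lie left of all genes in the batch panel (median -0.10 against -0.01), slightly left in the genotype panel (-0.03 against 0.00) and on them in the sex panel (0.00 in both).

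The shift was larger without mouse 12. Of 80 members 75 were then negative (52.98% of all genes) with a median of -0.07, and 10 had an unadjusted p under 0.05, against 9.31% of all genes, with 0 past the adjusted threshold. Mouse 12 had the largest ribosomal protein share of all mice, so leaving it out lowers the N/- side by construction. This holds here, in batch A and in females, and the larger shift is not separate evidence. Over the fits that leave out each mouse in turn, 55 to 75 members were negative and the median ran from -0.02 to -0.07, with the weakest shift on leaving out mouse 6, an N/N male. In batch B alone 72 of 80 were negative (median -0.09, against 52.4% of all genes). In batch A alone 33 of 80 were negative (median 0.01, against 49.4% of all genes), and 65 of 80 without mouse 12 (median -0.05, against 53.4%). The direction within batch A thus changed without that mouse, and no other mouse was left out within batch A. With no batch term 53 of 80 were negative (51.8% of all genes), with a median of -0.01. Without mice 4, 5, 8 and 9, a choice made after seeing the data, 67 of 80 were negative (median -0.04, against 50.5% of all genes). In that fit 2 members had an unadjusted p under 0.05, against 475 of all 16784 genes.

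In males 73 of 80 members were negative by genotype (median -0.08, against 52.3% of all genes), and in females 40 of 80 (median 0.00, against 49.4%). No member passed in either sex (background 0.0118% of 16924 genes in both), and 36 were negative in both sexes. Without mouse 12 females had 69 of 80 negative (median -0.06, against 49.4% of all genes) and males 72 of 80 (median -0.07, against 49.2%). In both sexes 63 members were then negative. The difference between the sexes (male minus female effect) was negative for 64 of 80 members (51.6% of all genes) with a median of -0.08 over all mice, and for 42 of 80 with a median of -0.01 without mouse 12. Without mice 4, 5, 8 and 9, 73 of 80 were negative in males (median -0.11, against 50.2% of all genes) and 23 in females (median 0.03, against 48.9%). For the difference 68 were negative (median -0.15, against 49.99%). No member passed the test of that difference (edgeR, smallest adjusted p 0.99995), nor did any gene (0% of 16924, with 287 at an unadjusted p under 0.05).

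The members with the smallest p for that difference were Rps18 and the X-linked Rps4x. Rps18 ran from 8.53 over 9.81 to 13.2 CPM in N/- males, from 9.46 over 11.01 to 13.2 CPM in N/N males, from 9.25 over 10.8 to 15.5 CPM in N/- females and from 8.73 over 9.92 to 11.8 CPM in N/N females. The difference was -0.30 (SE 0.13, unadjusted p = 0.0306 by edgeR), and -0.23 (SE 0.12) without mouse 12, which gave the 15.5. Rps4x reached -0.25 (SE 0.12, unadjusted p = 0.0455), and -0.17 (SE 0.10) without mouse 12. Neither kept an unadjusted p under 0.05 without mouse 12. Without mice 4, 5, 8 and 9 the difference was -0.41 (SE 0.14) for Rps18 and -0.30 (SE 0.13) for Rps4x. Among the members with the next smallest p, Rps3a1 stood at -0.18 (SE 0.11) and Rpl22 at -0.11 (SE 0.08).

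**Figure D5:**
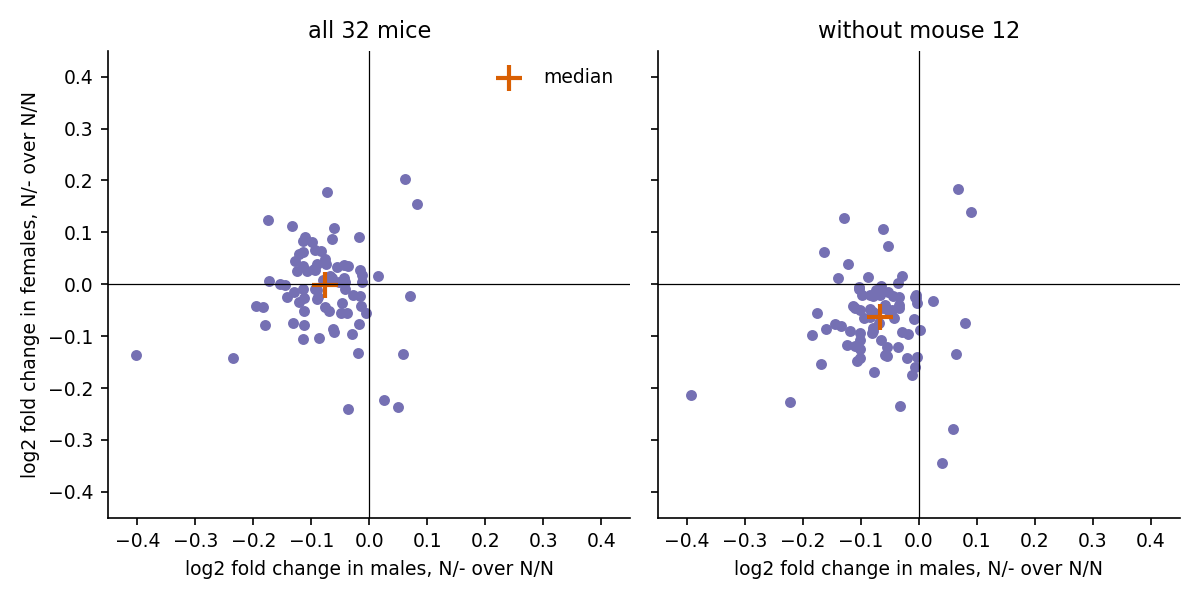
Log2 fold change (N/- over N/N) of 80 ribosomal protein genes in males (horizontal axis) against females (vertical axis), with their median (cross), over all 32 mice and without mouse 12. The median lies at -0.08 in males and 0.00 in females over all mice, and at -0.07 in males and -0.06 in females without mouse 12.

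By sex no member passed the test. Of 80 members 0 passed the adjusted threshold and 0 an unadjusted p under 0.05 (edgeR), against 0.107% and 5.36% of 16776 genes, and DESeq2 and limma voom called 0 as well. Negative values (male over female) stood at 39 of 80, against 52.0% of all genes, and at 14 of 80 without mouse 12, against 51.1%. The smallest p belonged to Rpl28, from 0.664 over 0.884 to 1.22 CPM in males and from 0.421 over 0.923 to 1.12 CPM in females, with a log2 fold change of 0.19 (SE 0.13, unadjusted p = 0.140). Among the members with the next smallest p, Rpl3 stood at 0.09 (SE 0.06), Rpl27 at 0.15 (SE 0.11) and Rpl36 at 0.12 (SE 0.09). X-linked members stood at -0.04 (SE 0.06) for Rps4x, 0.05 (SE 0.08) for Rpl10 and -0.13 (SE 0.11) for Rpl36a, without passing.

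Between batches the family differed most. Of 80 members 77 were lower in batch B (52.7% of all genes), with a median of -0.10, against -0.01 for all genes. Past the adjusted threshold was 1 member, against 0.161% of all genes, and 18 members were lower at an unadjusted p under 0.05, against 5.90% of all genes, with 0 higher. All 32 small subunit and 45 of 48 large subunit members were negative. The batches also differ in cages and in the balance of genotypes, and genotype is a term in the fit. Without mouse 12 the median was -0.06 and 73 of 80 were negative, against 49.8% of all genes. Without mice 4, 5, 8 and 9 the median was -0.11 and 74 were negative, against 51.3%.

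Rpl24, a large subunit protein that bridges to the small subunit (Entrez 68193, chromosome 16, 55966275 to 55971437), was the member past the threshold. It ran from 2.62 over 3.16 to 3.79 CPM in batch B and from 3.19 over 3.795 to 5.12 CPM in batch A. The median of batch B lay just under the lowest mouse of batch A. Its log2 fold change was -0.33 (SE 0.07, adjusted p = 0.0398 by edgeR), with an adjusted p of 0.0530 without mouse 12, 0.0713 without mouse 3 and 0.0696 without mice 4, 5, 8 and 9. Rps16, in the small subunit's head (Entrez 20055, chromosome 7, 28350689 to 28352698), ran from 2.78 over 3.42 to 4.66 CPM in batch B and from 3.45 over 4.37 to 7.43 CPM in batch A. It was lower by 0.39 on the log2 scale (log2 fold change -0.39, SE 0.09), and edgeR's adjusted p was 0.0580. Rpl10a stood at -0.25 (SE 0.06), Rps6, the classical target of S6 kinase, at -0.23 (SE 0.07) and Rpl5 at -0.21 (SE 0.07).

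For Rpl24, Rps16 and Rpl10a the difference was not the same in both runs of a library. Each library was sequenced in 2 lanes, so the runs share their molecules. In batch B, Rps16 stood at 3.30 ± 0.492 CPM in lane L002_F4 and 3.49 ± 0.531 CPM in lane L002_F7. In batch A it stood at 5.17 ± 1.04 CPM in lane L001_F7 and 3.89 ± 0.830 CPM in lane L004_F6 (SD, n = 16 each), and lane L001_F7 was the higher in 15 of 16 mice. Of the 4 lanes, L001_F7 had the highest mean for this gene.

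Lane L001_F7 also had the highest mean for Rpl24 and Rpl10a. Rpl24 had 3.13 ± 0.371 CPM in lane L002_F4 and 3.11 ± 0.465 CPM in lane L002_F7 of batch B, against 4.38 ± 0.793 CPM in lane L001_F7 and 3.47 ± 0.476 CPM in lane L004_F6 of batch A, with L001_F7 the higher in 14 of 16 mice. Rpl10a had 4.34 ± 0.672 CPM in lane L002_F4 and 4.42 ± 0.643 CPM in lane L002_F7, against 5.64 ± 0.649 CPM in lane L001_F7 and 4.65 ± 0.630 CPM in lane L004_F6. For Rpl35, a protein at the tunnel exit, the first run was the higher in both batches, at 3.04 ± 0.513 against 2.47 ± 0.377 CPM in batch B and 3.53 ± 0.603 against 2.63 ± 0.607 CPM in batch A, in 14 of 16 mice each time. Rps3, for comparison, had 273 ± 36.1 CPM in lane L001_F7 and 274 ± 36.4 CPM in lane L004_F6.

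Of the 62 members with at least 1000 summed counts in batch A, 1 differed between the lanes of batch B by more than 0.25 log2 units, against 0.0445% of 13479 genes, and 4 differed between the lanes of batch A, against 0.230%. The 4 are Rpl35, Rps16, Rpl24 and Rpl10a, and the limit of 0.25 was chosen after values were seen. The batch difference followed these runs. It was -0.63 (SE 0.10) for Rps16 and -0.47 (SE 0.09) for Rpl24 on the first runs, and -0.16 (SE 0.10) and -0.18 (SE 0.08) on the second runs. On the first runs 3 of 79 members passed the threshold, Rpl24, Rps16 and Rpl10a, against 38 of all 15739 genes tested. On the second runs 0 members passed, and 0 of all 15875 genes tested. The median over the members was -0.10 on either. The shift of the whole family was thus as large in both runs. The number of calls was not, for the members and for all genes alike.

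Other parts of the translation machinery were described from lists of named genes. By genotype 0 genes of these 7 lists passed the threshold. Of 11 tested transcripts that also carry a terminal oligopyrimidine tract 10 were negative (median -0.03), with Btf3 at -0.06 (SE 0.05) and the poly(A)-binding protein gene Pabpc1 at -0.05 (SE 0.04). The ribosomal protein genes had a median of -0.03 as well. Of 30 initiation factors 14 were negative (median 0.00), with Eif1ax at 0.10 (SE 0.04) and the helicase gene Eif4a1 at -0.08 (SE 0.03). Of 9 elongation factors 5 were negative (median -0.01), with the kinase gene Eef2k at 0.07 (SE 0.06) and Eef1a1 at -0.05 (SE 0.05).

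Ribosome biogenesis factors were negative in 24 of 33 (median -0.02), with Ubtf, a factor of RNA polymerase I, at -0.07 (SE 0.03) and Rrp9 at -0.06 (SE 0.03). The regulators of the tract, with mTORC1, were negative in 9 of 15 (median -0.02), with Rps6kb1 at 0.06 (SE 0.04) and Rptor at 0.05 (SE 0.03). Factors of ribosome collision and rescue were negative in 8 of 11 (median -0.02), with Zfp598 at -0.07 (SE 0.05) and G3bp1 at -0.04 (SE 0.03). Of p53 targets 5 of 10 were negative (median 0.01), with Pmaip1 at 0.37 (SE 0.15) and Ccng1 at 0.09 (SE 0.04). By batch, where 52.7% of all genes were negative, 27 of 30 initiation factors (median -0.06), 8 of 9 elongation factors (-0.06), 24 of 33 biogenesis factors (-0.02), 8 of 11 other tract transcripts (-0.03) and 8 of 11 collision and rescue factors (-0.03) were negative. The regulators of the tract stood at 6 of 15 (median 0.04) and p53 targets at 5 of 10 (median 0.00). In these lists 0 genes passed by batch. By sex 1 gene of these lists passed, the X-linked initiation factor gene Eif2s3x (log2 fold change of males over females -0.49, SE 0.05, adjusted p = 5.70e-08 in edgeR), known to escape X inactivation.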

How the data were processed

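RNA from striatum of 32 mice was read as 50 bp single-end reads. The tables the authors deposited, 1 for each of 64 sequencing runs, hold raw counts per Entrez gene, without normalization. The submitters' processing notes name FastQC 0.11.3, featureCounts of Subread, mm10, edgeR 3.8.6 and limma 3.22.7, while the series text names TopHat and HTSeq, so the aligner and counter are not settled. These sources do not say how multiply matching reads and strand were treated.

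The 2 runs of a mouse were summed. Identifiers were matched to symbols in RefSeq's GRCm38.p6 gene table (25275 of 27179, and those without a symbol held 0.766% of counts). Rpl6l and Rps4l matched the symbol rule but are pseudogenes there and were left out. Members and gene lists were chosen with earlier results of these data known.

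Tests used edgeR 4.0.16 in R 4.3.3: filterByExpr (16776 genes kept), TMM scaling, and the robust quasi-likelihood F test with terms for batch, sex and genotype, or for batch and 4 groups of genotype and sex. Adjustment over all genes followed Benjamini and Hochberg, at a threshold of 0.05. Fold changes are N/- over N/N, male over female and batch B over batch A. SE is the absolute log2 fold change divided by the square root of F. The procedure was tested on simulated data. The mouse is the replicate. Litters are not labelled, so p-values measure the spread between these mice.

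Level per kb is mean CPM over the length of the shortest complete principal transcript in GENCODE M21. Correlations use log2 CPM with a prior count of 2. Genes were named by rule: members past a threshold, the smallest p-values (5 in each direction by genotype, 5 by sex, batch and interaction), the 8 highest and 8 lowest per length, the 5 most and least correlated, the 5 most variable (Rps23, Rpl32l, Rpl3l, Rps13 and Rpl28), X-linked members and paralogues, Cyfip2, and from each pathway list the 2 with the smallest genotype p and any past the threshold. Rpl7a and Rpl35 were chosen after their values were seen, and 2 members are counted but not reported singly here. Alternatives covered scaling, filter, DESeq2 1.42.0, limma 3.58.1 voom, single runs, batches, cages and left-out mice.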

Additional observations from a re-analysis of the deposited data

Results flagged for a closer look

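In each group of 8 mice, the highest and the lowest mouse were compared with the nearest of the others, for the family's share of counts, the mitochondrial share and the named members. Of 180 groups examined 42 had a mouse far from the others by Dixon's test, where chance gives about 1 in 20 for genes chosen beforehand. Many members were named from these same values, some for following the family closely or for a large spread. That rate is therefore no fair reference here. Since members vary together, the 42 are few separate observations.

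Mouse 12 accounts for 21 of them. Its ribosomal protein share was 0.356%, against 0.238% to 0.280% in the other 7 N/- females, and its mitochondrial share 10.4%, against 6.37% to 8.23%. Among single genes of large subunit proteins it reached 56.9 CPM for Rpl14, 102.6 CPM for Rpl22, 30.9 CPM for Rpl35a, 41.7 CPM for Rpl37, 321 CPM for Rpl4, 58.8 CPM for Rpl7, 31.6 CPM for Rpl7l1, 341 CPM for Rpl8, 102 CPM for Rplp0 and 293 CPM for Rplp1. Among small subunit genes it reached 143 CPM for Rps14, 228 CPM for Rps15, 7.43 CPM for Rps16, 15.5 CPM for Rps18, 94.8 CPM for Rps21, 5.40 CPM for Rps28, 386 CPM for Rps3, 37.1 CPM for Rps3a1 and 20.4 CPM for Rps4x. Every one of these was the highest value among N/- females.

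Mouse 5 was highest among N/- males, with 21.8 CPM for Rpl22l1, 24.3 CPM for Rpl35a, 36.1 CPM for Rpl37, 296 CPM for Rpl4, 325 CPM for Rpl8, 87.9 CPM for Rplp0, 123 CPM for Rps14, 13.2 CPM for Rps18, 34.04 CPM for Rps26, 4.75 CPM for Rps28 and 340.4 CPM for Rps3. Mouse 28 was highest among N/N females, with 316 CPM for Rpl8, 247 CPM for Rplp1, 113 CPM for Rps14, 196 CPM for Rps15 and 322 CPM for Rps3. Among N/N males, Rps6 stood high in mouse 6 (6.00 CPM), Rpl23a in mouse 18 (2.19 CPM) and Rps13 in mouse 26 (0.880 CPM). The X-linked Rpl10 was low in mouse 19, an N/- female (1.89 CPM), and in mouse 31, an N/N female (1.63 CPM). The mitochondrial and microglial values given above stand beside these levels, and their part was not tested.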

How the results depend on the processing

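No member passed by genotype or sex under any alternative. Of 260 values that answer a comparison 237 stayed within 1.5 times or, for the family's share, within the SD. Among them are the many counts of members that were 0 and stayed 0, so the tally is not a measure of stability. By genotype, 2 genes passed in each fit but that on batch B alone, with 5, and members below 0 came to 33 in batch A alone (the added fit without mouse 12 gave 65). Leaving out each mouse in turn gave 55 to 75 members below 0. By sex, 28 genes passed with DESeq2 and 7 in batch A alone, with mouse 12 or, as added after seeing the data, without it; members below 0 were 14 without mouse 12, 22 in batch B alone and 17 in batch A without mouse 12. By batch, genes past the threshold were 94 with DESeq2, 11 without mouse 12, 8 without mouse 3, 8 without mice 4, 5, 8 and 9 (added after seeing the data) and 0 on the second runs, against 27. Members past it were 3 with DESeq2 and on the first runs, where 38 of all genes passed. They were 0 without the filter (18 of all genes), mouse 12, mouse 3 or mice 4, 5, 8 and 9, or on the second runs. Without mouse 12, 69 members were below 0 in females and 42 for the difference between the sexes, and without mice 4, 5, 8 and 9, 23 were below 0 in females. For Rpl5 the genotype value turned to -0.0458 on the second runs, and the cause was not tested.

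Cages, of which 10 held both genotypes (21 mice, mouse 12 not among them), gave 73 members below 0 as a fixed block, with 12 at an unadjusted p under 0.05, against 3 over all mice, and 70 below 0 as a random effect. Each mouse carries its own number, so cage was the only block. With the longest principal transcript, 5 of the levels per length that were checked moved by more than their SD between mice. The level of Rps15a was 12.9 in place of 104 CPM per kb. Members under 100 counts (23 of 80 tested) are limited by counting error, and Rpl13, Rpl39, Rpl39l and Rpl10l had too few counts to be tested.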
